A study of Mus musculus with 10 samples.

Results

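The genes described here are those of the creatine and adenylate energy buffer of muscle. They were chosen by name, with earlier results of these data known. The 10 genes were *Ckm*, *Ckmt2*, *Ckb*, *Gatm*, *Gamt*, *Slc6a8*, *Ak1*, *Ampd1*, *Ampd3* and *Adss*. All 10 were measured, each by 1 probe set (a group of array probes that together report on 1 gene), among 19505 named genes and 22206 probe sets. Gene expression was measured with Clariom S mouse arrays in gastrocnemius muscle (GTN) of 5 ctrl and 5 mTKO mice, with 1 mouse per array. All were male, were sampled on postnatal day 60, were fed standard chow and had a C57BL/6N background. Ctrl mice were *Txnrd2* fl/fl without Cre, and mTKO mice were *Txnrd2* fl/fl; *ACTA1-Cre* +/Cre, so that both groups carried the floxed alleles. The human *ACTA1* promoter drives Cre in myofibers and not in satellite cells, and GTN also holds vessel, nerve and connective tissue cells in which *Txnrd2* is kept. Mice with Cre and no floxed allele were not analysed here.

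A contracting fiber uses ATP faster than mitochondria deliver it, and creatine kinases bridge the gap by moving phosphate from phosphocreatine to ADP. The mitochondrial isozyme charges creatine with phosphate where ATP leaves the organelle, and the cytosolic isozyme spends it beside the myofilaments. Adenylate kinase makes ATP and AMP from a pair of ADP molecules. AMP deaminase then removes AMP as IMP, which the purine nucleotide cycle turns back into AMP. The comparison of mTKO with ctrl asks whether the transcripts of this buffer differ when the mitochondrial thioredoxin reductase is lost from myofibers.

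*Ak1* had a lower signal in every mTKO array than in any ctrl array, and the genotypes overlapped for the other 9 genes. Signals are given on the log2 scale, on which a difference of 1 is a doubling. The log2 difference (mTKO minus ctrl) was -0.25 for *Ak1*, or 15.7% less signal. It was 0.37 for *Gamt*, the largest of the 10, with overlapping groups. The other 8 had differences between -0.05 and 0.15. At an adjusted p under 0.05, limma called 0 of the 10 genes, where 0.0045% of all probe sets were called. At an unadjusted p under 0.05 it also gave 0 of 10, against 6.36% of all probe sets. The methods' t-test (equal variance, per probe set), at P under 0.05 and more than a 2-fold change, gave 0 of 10, against 0.0585%. With the looser cut-off of the study's pathway maps, P at most 0.05 and a fold change of at least 1.2, it gave 0 of 10, against 5.3%, and with P under 0.05 alone it gave 1 of 10, *Ak1*, against 6.05%. Groups did not overlap for 1 of 10 genes, against 1.02% of all probe sets. The signs were mixed, with 6 genes above 0 and 4 below, where 49.8% of all probe sets lay above 0. The median difference of the 10 genes was 0.07, against 0.00 over all probe sets, and the median absolute difference was 0.09 against 0.14.

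**Figure D1:**
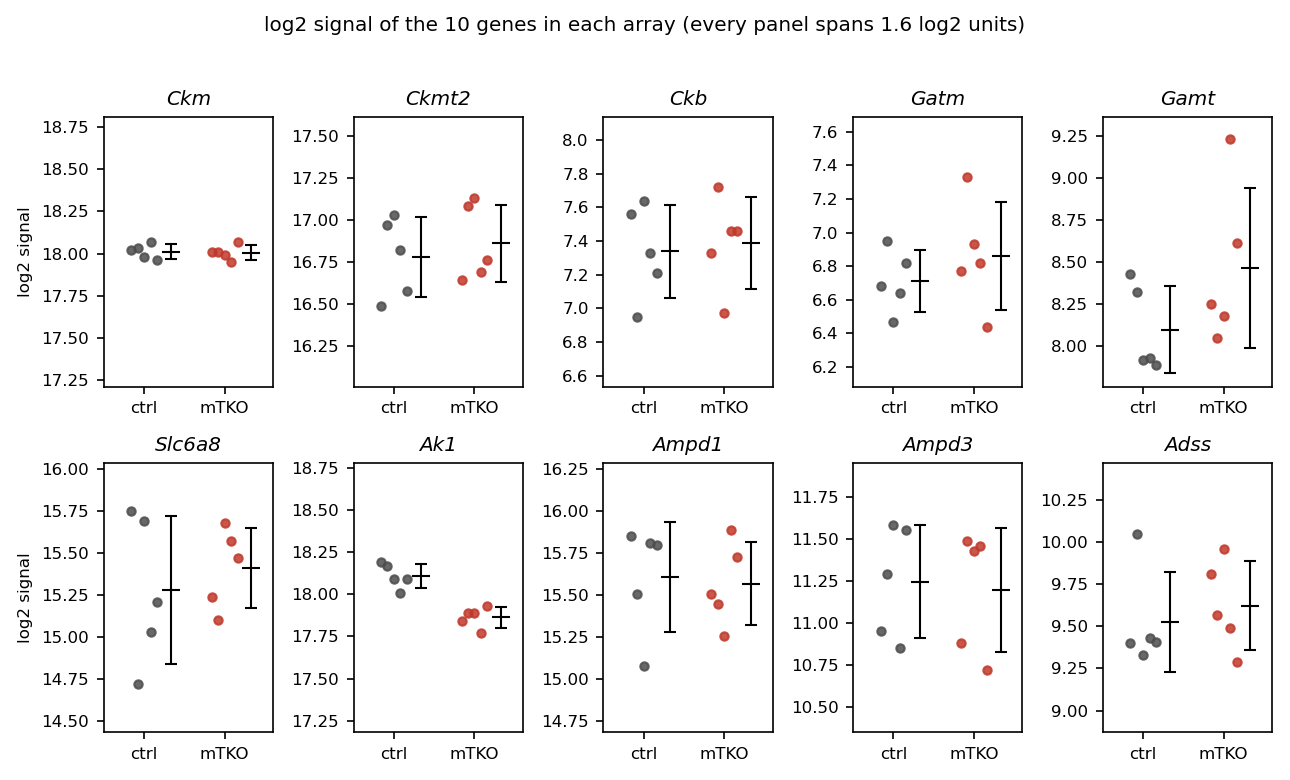
Log2 signal (y axis) of each of the 10 genes in the 5 ctrl (grey) and 5 mTKO (red) arrays, 1 point per array, with the mean and SD beside the points. Every panel spans the same range of log2 units. The *Ak1* points of mTKO (17.77 to 17.93) all lie under those of ctrl (18.01 to 18.19), and the groups overlap in the other 9 panels.

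*Txnrd2*, the targeted gene, was lower in all 5 mTKO arrays. Its log2 signal was 8.82, 9.08, 8.67, 8.47 and 8.65 in ctrl replicates 1 to 5, and 7.51, 7.54, 7.96, 7.79 and 7.90 in mTKO replicates 1 to 5. The difference was -0.998 with a standard error of 0.16. An exact permutation test (two-sided) gave p = 0.00794, which is as low as 5 against 5 arrays can go, and limma an adjusted p of 0.118. Which exons Cre removes is not given in the sources used here, so the part of the transcript that the probe set reads is not known to lie in the deletion. The arrays were alike as a whole, with medians from 6.06 to 6.14 and correlations between arrays from 0.986 to 0.990.

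Tissue markers were read beside these results. The 9 fast fiber markers, the fiber type that makes up most of mouse GTN, had a mean log2 signal of 18.88 to 18.96 in ctrl and 18.83 to 18.89 in mTKO, and 8 of 9 had a difference below 0 (from -0.23 for *Actn3* to 0.00 for *Mylpf*). The 7 slow fiber markers had a mean of 13.79 to 14.24 in ctrl and of 13.28 to 14.73 in mTKO, a wider spread that contains the ctrl range, with differences from -0.29 (*Tnni1*) to 0.41 (*Tnnc1*). The 3 smooth muscle markers had differences from -0.48 (*Tagln*) to -0.36 (*Acta2*), with mean levels of 10.72 to 11.28 in ctrl and 10.51 to 10.76 in mTKO. The 2 satellite cell markers had differences of 0.37 (*Myf5*) and 0.47 (*Pax7*), with mean levels of 5.08 to 5.47 in ctrl and 5.42 to 6.11 in mTKO. Their signals were low: 50.5% of all probe sets had a higher mean than *Myf5* and 67.4% than *Pax7*. The 4 endothelial markers ranged from -0.40 (*Tie1*) to 0.28 (*Kdr*), the 3 measured fibroblast markers from -0.23 (*Dcn*) to 0.24 (*Col3a1*), the 3 measured leukocyte markers from -0.54 (*Adgre1*) to 0.00 (*Csf1r*), and both measured adipocyte markers were at -0.63 (*Adipoq*) and -0.46 (*Plin1*). The signal of *Plin1* was low as well, with 74.0% of all probe sets higher. The nerve marker *Mbp* was at 0.03 and the erythroid marker *Alas2* at -0.08. Of 35 measured markers, 0 passed an adjusted p under 0.05 in limma, where 0.0045% of all probe sets did. An unadjusted p under 0.05 was found for 5 of 35 (*Pax7*, *Tie1*, *Myh11*, *Tagln* and *Adgre1*), against 6.36% of all probe sets. The part of the markers in the results below was not tested. In whole muscle, fewer cells of a type and less RNA per cell cannot be told apart.

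None of the 3 creatine kinase genes passed the test. *Ckm*, the cytosolic muscle isozyme bound in part to the M line of the sarcomere, was measured at 18.02, 18.03, 17.98, 18.07 and 17.96 in ctrl and at 18.01, 18.01, 17.99, 17.95 and 18.07 in mTKO. All 10 arrays thus lay within a narrow band, and the ctrl and mTKO ranges nearly coincided. The means were 18.01 ± 0.04 in both groups (SD, n = 5 each), and the difference was -0.006 with a 95% interval of -0.28 to 0.27 from limma (adjusted p = 0.996). From the spread of *Ckm* alone the interval was -0.07 to 0.06, because limma draws each gene's variance towards that of all probe sets. A two-sided exact permutation test gave p = 0.881.

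*Ckmt2* encodes the sarcomeric mitochondrial creatine kinase, which sits between the mitochondrial membranes. Its log2 signal was 16.49, 16.97, 17.03, 16.82 and 16.58 in ctrl and 16.64, 17.08, 17.13, 16.69 and 16.76 in mTKO. The 2 highest values were those of mTKO replicates 2 and 3, and the lowest was in ctrl. The difference was 0.08 (95% interval -0.27 to 0.44, limma adjusted p = 0.969), and it ran from 0.01 (without ctrl replicate 1) to 0.145 (without ctrl replicate 3) when single arrays were left out. *Ckb*, the brain-type cytosolic isozyme, ranged from 6.95 to 7.64 in ctrl (median 7.33) and from 6.97 to 7.72 in mTKO (median 7.46), a difference of 0.05 (interval -0.33 to 0.43).

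Creatine reaches muscle from the blood through the transporter SLC6A8. The log2 signal of *Slc6a8* was 15.75, 14.72, 15.69, 15.03 and 15.21 in ctrl and 15.24, 15.10, 15.68, 15.57 and 15.47 in mTKO. All 5 mTKO values fell inside the ctrl range, which spanned more than 1 log2 unit and was the widest ctrl spread among the 10 genes (SD 0.44). The difference was 0.13 (95% interval -0.31 to 0.57, limma adjusted p = 0.952).

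Both enzymes of creatine synthesis had a positive difference that did not pass the test. *Gatm*, which forms guanidinoacetate from arginine and glycine, ranged from 6.47 to 6.95 in ctrl (median 6.68) and from 6.44 to 7.33 in mTKO (median 6.82), with a difference of 0.15 (95% interval -0.23 to 0.52). It was 0.028 without mTKO replicate 2 and 0.25 without mTKO replicate 5. *Gamt*, which methylates guanidinoacetate with S-adenosylmethionine, gave signals of 8.43, 8.32, 7.92, 7.93 and 7.89 in ctrl and 8.25, 8.05, 8.18, 9.23 and 8.61 in mTKO. mTKO replicates 4 and 5 lay above all ctrl arrays, and the other 3 lay among them. The difference of 0.37 was a fold change of 1.29 (95% interval -0.09 to 0.83 on the log2 scale, limma adjusted p = 0.840), and a two-sided exact permutation test gave p = 0.175. Without single arrays the difference ran from 0.17 (without mTKO replicate 4) to 0.47 (without mTKO replicate 2).

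*Ak1* encodes the cytosolic adenylate kinase of muscle. Its log2 signal was 18.19, 18.17, 18.09, 18.01 and 18.09 in ctrl replicates 1 to 5 and 17.84, 17.89, 17.89, 17.77 and 17.93 in mTKO replicates 1 to 5. The lowest ctrl value, 18.01, stood above the highest mTKO value, 17.93, so that the groups did not overlap. The means were 18.11 ± 0.07 and 17.86 ± 0.06 (SD, n = 5 each). The difference was -0.25, a fold change of 0.84, which is short of the 1.2-fold cut-off of the study's pathway maps and of the 2-fold cut-off of its methods. A two-sided exact permutation test gave p = 0.00794, again the lowest value possible here, and *Ak1* was the only one of the 10 genes to reach it (the next lowest was 0.175 for *Gamt*). Groups that do not overlap always give this value, so it adds nothing to the separation, which 1.02% of all probe sets showed. It was not adjusted over the 10 genes. Limma gave a 95% interval of -0.53 to 0.04 and an adjusted p of 0.825, so that the difference did not pass the test over all probe sets. From the spread of *Ak1* alone the interval was -0.34 to -0.15. When limma's variance was allowed to follow the signal (trend and robust eBayes), *Ak1* had an unadjusted p under 0.05 and an adjusted p of 0.574.

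Bright probe sets varied little between arrays. For the 114 probe sets with a mean log2 signal above 17, the median SD within groups was 0.12, against 0.30 over all probe sets and 0.07 for *Ak1*. That limit was chosen after the values were seen. It lies below the signal of *Ak1* in every array, so the 114 include dimmer probe sets. A difference at least as large as that of *Ak1* was found in 7 of the 114 (6.14%) and in 25.4% of all probe sets. Groups did not overlap in 3 of the 114, *Ak1* included, of which 2 were lower in mTKO. Without any 1 array the difference of *Ak1* stayed between -0.27 and -0.22, but leaving out an array cannot make separated groups overlap. The difference was -0.22 after quantile normalization and after cyclic loess, and the groups did not overlap in either. Whether the brightest probes approached saturation cannot be read from the deposited values.

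**Figure D2:**
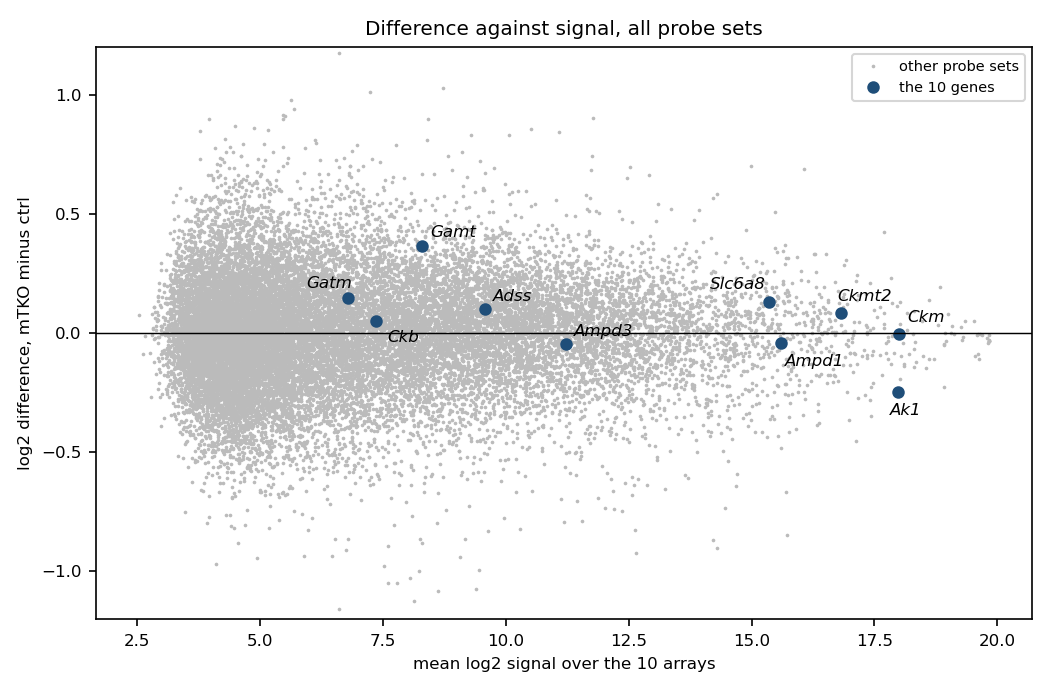
Log2 difference (mTKO minus ctrl, y axis) against the mean log2 signal over the 10 arrays (x axis) for all probe sets (grey) and the 10 genes (blue), with 14 probe sets outside the plotted range. The cloud narrows to the right, where *Ak1* at -0.25 lies at its lower edge and *Ckm* at -0.006 on the zero line.

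The promoters of *Ckm* and *Ak1* are shown because their probe sets are similarly bright, while the genotypes overlapped for *Ckm* and not for *Ak1*. They were taken from the RefSeq table of build GRCm38.p6, in which 8 of the 10 genes matched, with 13 listed start sites. The 250 bases before each start were searched on both strands for CAGCTG, an E-box of the type bound by MyoD that reads the same on both strands, and for TATAA. These motifs share no bases in the windows shown and were chosen after the values were seen. CAGCTG was found in 4 of the 13 windows (those of *Ckm* and *Ckmt2* and 2 of *Ak1*), against 13.0% of all 32851 windows, and TATAA in 2 of 13 (*Ckm* and *Ckb*), against 22.8%. The windows are not independent, since *Ak1* supplied 4 of the 13 and *Ampd3* 3, and these shares were not tested. Capitals mark the motifs below, and each sequence is the 250 bases before a start, 5′ to 3′ on the plus strand.
Ckm, chr7:19410844-19411093: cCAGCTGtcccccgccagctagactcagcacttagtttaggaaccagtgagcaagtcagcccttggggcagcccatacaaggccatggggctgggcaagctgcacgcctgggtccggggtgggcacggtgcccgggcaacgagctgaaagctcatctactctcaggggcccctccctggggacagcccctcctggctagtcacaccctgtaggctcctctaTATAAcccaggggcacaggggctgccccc
Ak1, first listed start, chr2:32621508-32621757: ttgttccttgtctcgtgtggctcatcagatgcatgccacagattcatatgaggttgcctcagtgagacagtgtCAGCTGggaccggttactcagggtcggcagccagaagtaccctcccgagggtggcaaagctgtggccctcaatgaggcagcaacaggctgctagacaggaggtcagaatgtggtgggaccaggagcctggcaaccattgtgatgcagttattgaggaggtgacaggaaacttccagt
Ak1, next listed start, chr2:32625187-32625436: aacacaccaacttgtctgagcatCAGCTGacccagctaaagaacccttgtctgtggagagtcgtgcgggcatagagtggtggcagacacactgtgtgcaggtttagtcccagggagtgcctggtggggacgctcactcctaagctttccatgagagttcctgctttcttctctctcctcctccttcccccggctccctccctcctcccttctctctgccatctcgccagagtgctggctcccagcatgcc
*Ckm* holds CAGCTG from 249 bases and TATAA from 29 bases before its start. *Ak1* holds CAGCTG from 177 and 227 bases before these starts, and its other listed starts hold neither motif. A match is only a run of letters, and the arrays do not show which start was used.

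In the AMP branch of the buffer, differences were smaller than the spread between arrays. *Ampd1*, the AMP deaminase of skeletal muscle, gave signals of 15.85, 15.51, 15.08, 15.81 and 15.80 in ctrl and 15.51, 15.45, 15.26, 15.89 and 15.73 in mTKO. The groups overlapped almost wholly, with the lowest value in ctrl and the highest in mTKO. The difference was -0.04 (95% interval -0.43 to 0.35, limma adjusted p = 0.985). *Ampd3*, the erythrocyte-type deaminase, which is also expressed in muscle, ranged from 10.85 to 11.58 in ctrl (median 11.29) and from 10.72 to 11.49 in mTKO (median 11.43), a difference of -0.05 (interval -0.48 to 0.39).

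Adenylosuccinate synthase takes IMP into the cycle. The array's symbol *Adss* stands for the gene now called *Adss2*, the non-muscle isozyme, while the muscle isozyme is listed as *Adssl1*. *Adss* gave signals of 9.40, 10.05, 9.33, 9.43 and 9.41 in ctrl and 9.81, 9.57, 9.96, 9.49 and 9.29 in mTKO. Ctrl replicate 2 was the highest of all arrays, and the other 4 ctrl arrays lay close together. The difference was 0.10 (95% interval -0.29 to 0.49, limma adjusted p = 0.967), and without single arrays it ran from 0.016 (without mTKO replicate 3) to 0.23 (without ctrl replicate 2). *Adssl1* ranged from 16.31 to 16.50 in ctrl and from 16.35 to 16.68 in mTKO, a difference of 0.11 (interval -0.19 to 0.40, limma adjusted p = 0.934).

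Pairs of genes with related roles were then compared within each array, which cancels any factor that scales a whole array. The difference between log2 signals was taken in each array and compared between genotypes by a two-sided exact permutation test, adjusted over 4 pairs. The mitochondrial and cytosolic kinases did not change unequally beyond the spread. *Ckmt2* minus *Ckm* was -1.53 to -0.95 in ctrl and -1.37 to -0.86 in mTKO, a shift of 0.09 (95% interval -0.25 to 0.43, exact p = 0.548). *Ampd3* minus *Ampd1* shifted by -0.006 (interval -0.80 to 0.79, exact p = 1). *Adss* minus *Adssl1* shifted by -0.008 (interval -0.48 to 0.46, exact p = 0.976), and *Gatm* minus *Gamt* by -0.22 (interval -0.97 to 0.53, exact p = 0.516). The *Gatm* to *Gamt* differences spread from -2.41 to -0.72 in mTKO and from -1.75 to -1.07 in ctrl, and the shift was -0.019 without mTKO replicate 4 and -0.44 without mTKO replicate 2. The adjusted p was 1 for all 4 pairs, and with 5 arrays per group the data do not exclude shifts within the 95% intervals.

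**Figure D3:**
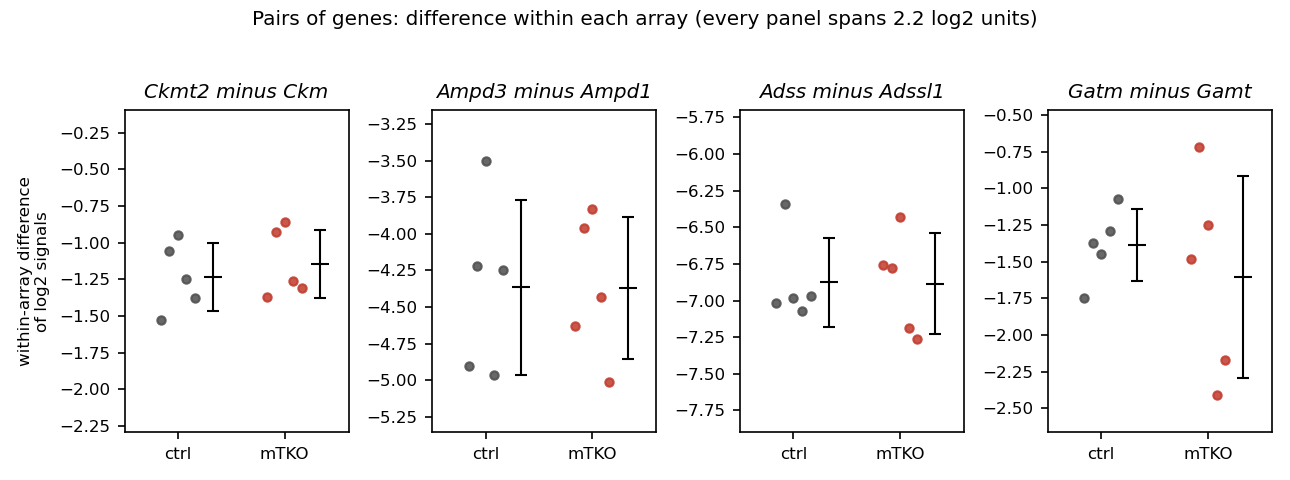
Within-array difference of log2 signals (y axis) for 4 pairs of genes in the 5 ctrl (grey) and 5 mTKO (red) arrays, 1 point per array, with the mean and SD beside the points. Every panel spans the same range, and the groups overlap in all 4, with shifts from -0.22 to 0.09.

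Other genes of creatine transport, adenylate exchange and purine nucleotide metabolism were taken from 6 lists with 47 genes, of which 42 were measured. Limma called 0 of the 42 at an adjusted p under 0.05, where 0.0045% of all probe sets were called. An unadjusted p under 0.05 was found for 0 of the 42, against 6.36% of all probe sets. Differences were above 0 for 17, below 0 for 24 and exactly 0 for 1 (*Ampd2*), with a median of -0.02. Of all probe sets, 49.8% lay above 0. The groups overlapped for all 42, where they did not overlap in 1.02% of all probe sets. The 8 genes of creatine and adenylate transport, a list that also holds the kinase *Ckmt1*, had a median of -0.06, with 2 above and 6 below 0. *Slc25a4*, which encodes the ADP/ATP carrier that feeds ATP to the mitochondrial creatine kinase, ranged from 19.26 to 19.34 in ctrl and from 19.15 to 19.37 in mTKO, a difference of -0.03. *Ckmt1*, the ubiquitous mitochondrial creatine kinase, had the smallest p of this list, with 3.39 to 3.68 in ctrl and 2.94 to 3.68 in mTKO, a difference of -0.29 (limma adjusted p = 0.832). Its signal lay near the floor of the scale (2.39 is the lowest value), where differences carry little information.

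The 5 measured adenylate kinases other than *Ak1* had differences from -0.32 to 0.19, 4 of them below 0. *Ak3*, the mitochondrial matrix enzyme, had 13.32 to 13.59 in ctrl and 13.18 to 13.86 in mTKO and a difference of -0.04. *Ak7* had the smallest p of this list (-0.32, limma adjusted p = 0.825), with low signals of 4.03 to 4.89 (78.0% of all probe sets were higher). Whether *Ak1* differed from them was not tested.

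Among the 6 nucleoside diphosphate kinases, which pass phosphate from ATP to other nucleotides, *Nme4* had the smallest p, with a difference of 0.22 (limma adjusted p = 0.885). The signal of *Nme4* was low, with 62.8% of all probe sets higher. The 11 genes of the purine nucleotide cycle and AMP breakdown ranged from -0.51 for *Pnp*, the purine nucleoside phosphorylase, to 0.29 for *Nt5e*, an ecto-nucleotidase that frees adenosine from AMP. *Pnp* was at 6.18 to 7.67 in ctrl and 5.67 to 6.75 in mTKO (limma adjusted p = 0.823), with overlapping groups. *Adsl*, the lyase that follows adenylosuccinate synthase, was at -0.02. The 4 salvage genes ranged from -0.21 for *Dck*, deoxycytidine kinase (limma adjusted p = 0.891), to 0.09. The 8 measured genes of de novo purine synthesis had a median of 0.10 and ranged from -0.28 to 0.29. *Gart*, which encodes an enzyme with several steps of that pathway, was at 11.21 to 12.11 in ctrl and 10.82 to 11.56 in mTKO (limma adjusted p = 0.859).

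**Figure D4:**
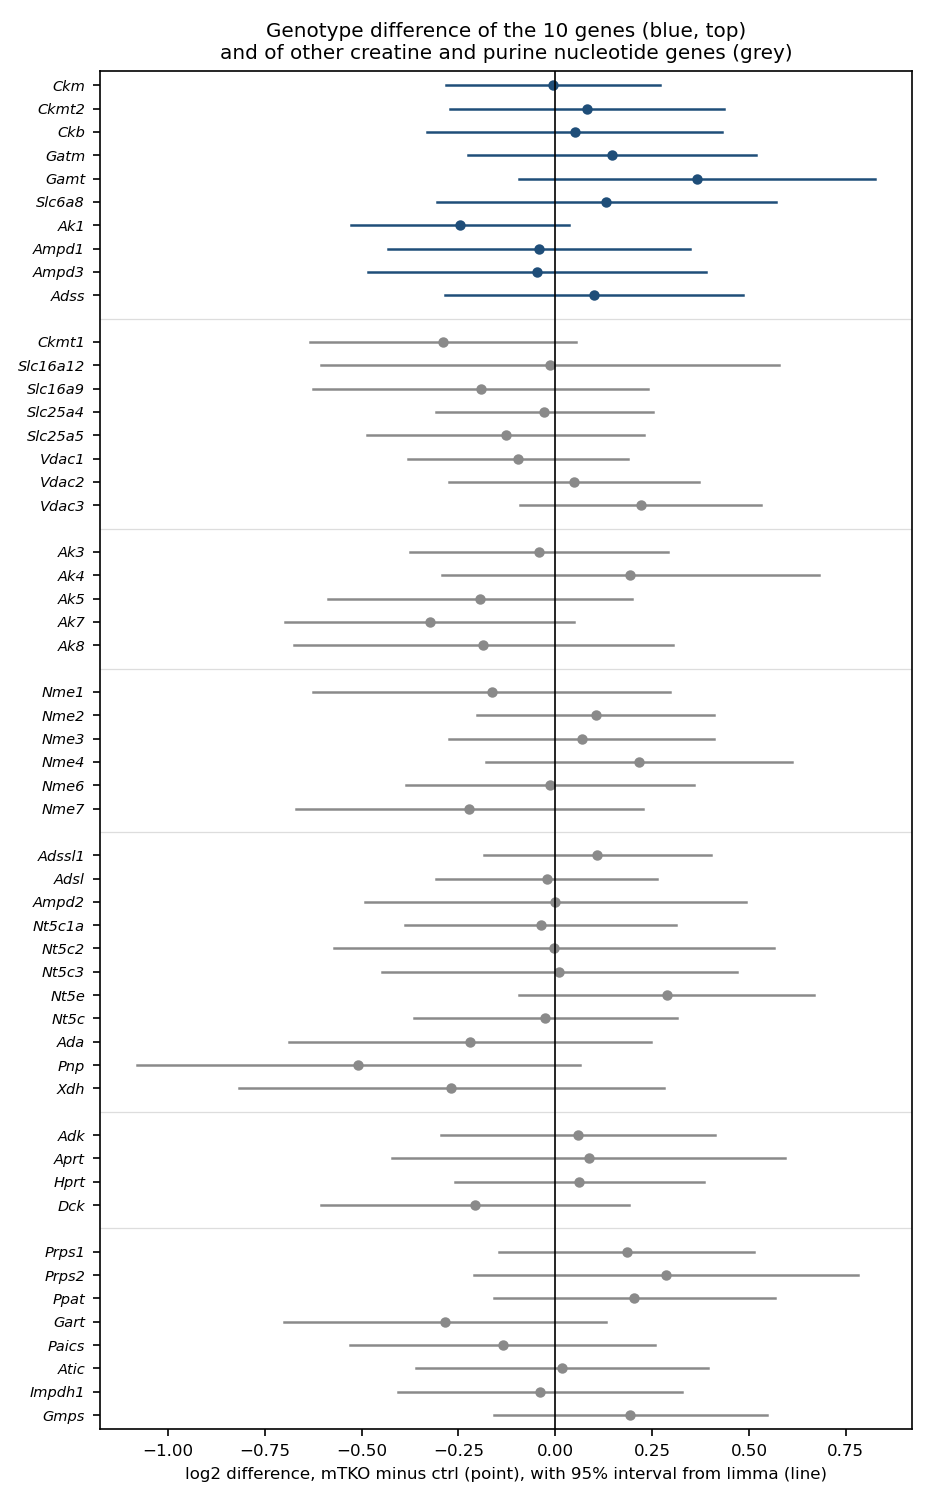
Log2 difference (mTKO minus ctrl, points, x axis) with the 95% interval from limma (lines) for the 10 genes (blue) and the 42 other genes (grey, grouped by list). Every interval includes 0, and the intervals of the 10 genes reach from -0.53 to 0.83.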

How the data were processed

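Signals are the log2 values deposited by the authors, made with SST-RMA (background correction, normalization between arrays, summary per probe set) in Affymetrix Expression Console 1.4. They entered the tests unchanged and unfiltered. Of 22206 probe sets, 19572 have 1 symbol in the platform annotation, whose build is not given in the sources used here.

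Genotypes were compared by limma 3.58.1 in R 4.3.3 (lmFit, eBayes, Benjamini-Hochberg adjustment over all probe sets), by the methods' t-test and by exact permutation over the 252 assignments of 5 and 5 arrays. The number of arrays limits the precision. The genes, lists and motifs were chosen with earlier results of these data known. Named genes were *Txnrd2*, the 10 genes, *Adssl1*, from each list those with an unadjusted p under 0.05 or else the smallest p, and the extremes of each marker list. *Slc25a4*, *Ak3*, *Ampd2*, *Adsl*, *Nt5e*, *Vdac3* and *Myh11* were added after their values were seen. Steps were tested on simulated data. Alternatives were the methods' t-test, other variance models, array weights, 2 normalizations, a signal filter, a replicate block, another threshold and leaving out each array. Plots used Python 3.11 with matplotlib 3.10.9.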

Additional observations from a re-analysis of the deposited data

Results flagged for a closer look

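Within groups of 5 arrays, 44 sets of values were examined for a single array far from the others, and 3 were found, where chance gives about 1 in 20. *Adss* in ctrl replicate 2 was at 10.05, with the next ctrl value at 9.43. The within-array difference of *Adss* minus *Adssl1* in the same array was -6.34, with the next ctrl value at -6.97, and it shares the *Adss* value. *Gart* in ctrl replicate 1 was at 12.11, with the next ctrl value at 11.41.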

How the results depend on the processing

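None of the 10 genes was called by adjusted p under any of the 18 alternatives tried. The number of all probe sets called was 1, and it was 0 with the methods' t-test, 9 with trend and robust eBayes, 0 after quantile normalization, 3 among probe sets above the median signal, and 0 to 1 without single arrays. One of the 10 genes, *Ak1*, had an unadjusted p under 0.05 with the methods' t-test (1 gene) and with trend and robust eBayes (1 gene), and 0 had one otherwise. *Ak1* kept its direction in 17 of 17 alternatives, of which only the 2 normalizations could have changed it. The others used the same values, or left out an array from groups that did not overlap. Of the other pathway genes, 0 had an unadjusted p under 0.05, against 6.36% of all probe sets. With trend and robust eBayes 1 had one (*Vdac3*), with the replicate block 1 (*Pnp*), and without single arrays 0 to 2 (*Ak7*, *Pnp* and *Ckmt1*). *Txnrd2* (-0.998, adjusted p = 0.118) passed in limma with trend and robust eBayes (-0.998, adjusted p = 0.0453) and among the brighter probe sets (-0.998, adjusted p = 0.0327, with fewer probe sets tested), and its adjusted p ranged from 0.0327 to 0.542 over all alternatives. The cause of the other changes was not tested.

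Differences near 0 changed sign. *Ckm* was at 0.013 after quantile normalization and 0.019 after cyclic loess, and *Ampd3* minus *Ampd1* at 0.0071 after quantile normalization. Without single arrays, the ranges were -0.022 to 0.0085 for *Ckm*, -0.047 to 0.15 for *Ckb*, -0.008 to 0.25 for *Slc6a8*, -0.17 to 0.035 for *Ampd1*, -0.15 to 0.071 for *Ampd3*, -0.15 to 0.21 for *Ampd3* minus *Ampd1* and -0.12 to 0.13 for *Adss* minus *Adssl1*. The sign held, but the size did not, for *Ckmt2* (0.01 to 0.145), *Gatm* (0.028 to 0.25), *Gamt* (0.17 to 0.47), *Adss* (0.016 to 0.23), *Ckmt2* minus *Ckm* (0.014 to 0.16) and *Gatm* minus *Gamt* (-0.44 to -0.019). Both scalings moved the median of all probe sets by at most 0.00275. The labels do not say whether replicate numbers pair the mice. Correlations of same-numbered deviations ran from -0.036 to 0.164 (1 of 5 over 0.1) and cannot decide it. With the replicate block, 0 of the 10 genes and 1 probe set in all were called, and *Ckmt2* minus *Ckm* had p = 0.125 in an exact sign-flip test. With only 5 pairs, a two-sided sign-flip test cannot give a p under 0.05. Averaging probe sets changed nothing, since each gene had 1.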
